A study of Mus musculus with 4 samples.

Results

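Goblet cells are the secretory cells of the colon epithelium that make the mucus layer. The layer is built on MUC2, a very large glycoprotein that is folded and linked in the endoplasmic reticulum, packed into granules and released as an expanding gel, with smaller proteins bound to it. Membrane mucins are anchored on the surface of epithelial cells and form the glycocalyx beneath the gel. In the mouse colon the inner mucus layer keeps bacteria away from the epithelium, and in germ-free animals the layer develops without microbes. The set described here has 10 genes of 24016 in the deposited table, chosen by symbol: 5 that encode proteins of the secreted mucus (Muc2, Fcgbp, Zg16, Tff3 and Spink4), the folding helper Agr2, the transcription factor Spdef and the membrane mucins Muc1, Muc4 and Muc13. All 10 were listed with 1 copy in the genome, and all 10 were among the 14450 genes with a mean of at least 1 CPM, which is counts per 1000000 counts of the library.

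The RNA came from colon pieces of 4 cm from germ-free C57BL/6 mice aged 7 weeks, and there was 1 library for each of 4 conditions. Mice were untreated, or received phosphate-buffered saline (PBS), Escherichia coli (E. coli) or Lactobacillus rhamnosus GG (LGG), a probiotic strain, by gavage 4 h before the colon was taken. Per the labels, a gavaged group had 4 mice; whether their RNA was pooled, how many untreated mice there were and which E. coli strain was given are not stated. Tissue was whole colon piece, so muscle, immune and serosal cells were included, and in such bulk RNA fewer cells of a type and less RNA per cell cannot be told apart. With 1 library per condition, no difference has a replicate check, no test was made, and every 95% interval covers counting error only.

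Total counts were 16289580.0 to 29899371 per library, with PBS the lowest, and a count of 0 allowed up to 0.103 to 0.187 CPM. The colon epithelium was present in every library: Epcam, an epithelial adhesion molecule, was at 1787 to 2119 CPM and Krt8, an epithelial keratin, at 4447 to 5471 CPM. Genes of stomach glands were close to 0, with a summed level of 1.68 to 2.73 CPM over 11 genes, of which 4 had no count in any library, the highest being Muc6. Libraries also differed along the markers of colon position. Hoxb6, a Hox gene of the proximal colon, measured 33.1 CPM without treatment, 11.7 after PBS, 7.95 after E. coli and 17.0 after LGG. Hoxb13, a Hox gene of the distal colon, was at 134, 248, 286 and 203 CPM in the same order. Other distal genes did not all follow Hoxb13: Hoxd10 was at 8.69, 4.86, 6.75 and 3.96 CPM, highest in the untreated library. Of the 11 measured genes of a distal list, untreated was lowest for 6, beside 34.2% of all genes.

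Untreated was the lowest library for 8 of the 10 members, which otherwise differed in order. In the other 2, Muc2 and Spdef, the untreated and LGG libraries were both above PBS and E. coli. That order also held for 17.8% of all genes, so 2 of 10 is near the background. The start of transcription of Muc2 and Spdef is shown beside that of Fcgbp, the 1 of the 8 with the most counts. Each line gives the 250 bases before the annotated start from RefSeq (build GRCm38.p6), read 5′ to 3′ on the gene's own strand. Muc2 is from chr7:141690090-141690339 on the plus strand, Spdef from chr17:27728952-27729201 on the minus strand and Fcgbp from chr7:28070986-28071235 on the plus strand. Capitals mark exact matches on either strand, anywhere in the window. The motifs were TATAAA (the letters of a TATA box), CAGCTG (an E-box, the kind of site that ATOH1 binds), TGTTTAC (forkhead type) and TTTATGG (CDX type). Also marked were CCGGAT (an ETS site of SPDEF type), GGGCGG (GC box) and GACGTG (a site of the CREB3L type).
Muc2: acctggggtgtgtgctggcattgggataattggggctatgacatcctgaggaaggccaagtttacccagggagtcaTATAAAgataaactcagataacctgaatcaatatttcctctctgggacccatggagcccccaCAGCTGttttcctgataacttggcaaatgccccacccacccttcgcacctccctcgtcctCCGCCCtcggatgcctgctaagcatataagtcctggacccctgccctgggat
Spdef: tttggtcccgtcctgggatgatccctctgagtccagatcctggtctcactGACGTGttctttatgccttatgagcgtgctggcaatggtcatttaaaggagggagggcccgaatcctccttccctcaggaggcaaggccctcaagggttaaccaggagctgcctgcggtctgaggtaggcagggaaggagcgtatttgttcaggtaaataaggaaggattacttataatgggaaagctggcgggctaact
Fcgbp: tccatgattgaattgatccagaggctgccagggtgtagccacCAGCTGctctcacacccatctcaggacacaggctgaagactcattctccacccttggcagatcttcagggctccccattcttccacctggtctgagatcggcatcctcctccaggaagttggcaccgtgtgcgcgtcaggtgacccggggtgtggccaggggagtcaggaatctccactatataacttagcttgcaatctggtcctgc

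In Muc2 the matches were TATAAA with its first base 174 bases before the start, then CAGCTG at 112 and, on the opposite strand, GGGCGG at 52. TATAAA lay much nearer the start in Muc1, at 31 bases, and in Muc4, at 36. Similar runs nearer the start, such as tataag in Muc2, tataac in Fcgbp and tataat in Spdef, were not exact matches and were not counted. Spdef held GACGTG at 200 bases before the start, and Fcgbp held CAGCTG at 208. Promoters of 7 of the 10 members were in the table, all but Tff3, Zg16 and Spink4. Of these 7, CAGCTG was found in 2 (Muc2 and Fcgbp), against 12.8% of 27025 promoters of the same length, and TATAAA in 3 (Muc2, Muc1 and Muc4), against 13.0%. GGGCGG was found in 2 (Muc2 and Muc1) against 32.9%, GACGTG in 1 (Spdef) against 5.18%, and TTTATGG in 1 (Agr2) against 2.45%. TGTTTAC and CCGGAT were found in 0 of the 7, against 3.09% and 4.90%. No motif searched was shared by Muc2 and Spdef in this window; a match is a run of letters and not a shown binding site.

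Mucus genes took a large part of the counts. The 10 members together took 2.31% of all counts without treatment, 2.24% after PBS, 2.22% after E. coli and 2.34% after LGG. Muc2 ranked 1 or 2 by count among all rows in every library, Fcgbp 2 or 3 and Zg16 between 10 and 13. Counts grow with transcript length, so the levels of the members are compared with each other only per kb of the listed length. On that scale Zg16, a lectin-like protein that binds Gram-positive bacteria, was highest at 4614 to 6123 CPM per kb. Tff3, the trefoil peptide of the intestine, followed at 1745 to 2540 CPM per kb, and Muc2 came next at 1223 to 1572. Agr2, a protein disulfide isomerase needed for Muc2 folding, was at 1005 to 1290 CPM per kb, a range that overlapped that of Muc2, though Muc2 was higher in each library. Fcgbp, a large mucus protein with von Willebrand domains, was at 679 to 873, Spink4, a small Kazal-type protease inhibitor of goblet granules, at 502 to 649.7, and the membrane mucin Muc13 at 415 to 488 CPM per kb. The last 3 members were far lower: Spdef, an ETS factor that drives goblet maturation, at 43.0 to 60.6, Muc4 at 11.5 to 12.4 and Muc1 at 3.92 to 8.59 CPM per kb. Apart from Agr2 and Muc2, no neighbours in this order overlapped. The Muc2 level, and with it the place of Muc2 in this order, depends on the gene model. The listed length of Muc2 is 6686 bases (NM_023566, mm9 chromosome 7, 148876239 to 148940599), while the longest coding Muc2 transcript in GENCODE M21 has 2926 bases. Whether either model holds the whole transcript was not tested, so the direction of the effect on the Muc2 level is not known here.

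**Figure D1:**
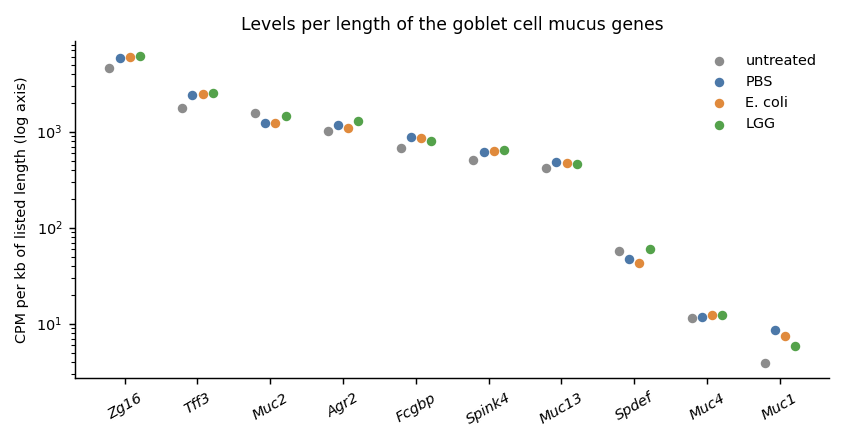
Level of each gene per kb of its listed length (vertical axis, log scale, CPM per kb), with 1 point per library. Zg16 is highest at 4614 to 6123 and Muc1 lowest at 3.92 to 8.59 CPM per kb, and the spread over libraries is small beside the differences between most genes.

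Among the proteins of the secreted gel, Muc2 stood apart from its partners. Muc2 measured 10512.5 CPM without treatment, 8281 after PBS, 8174 after E. coli and 9719.9 after LGG. The PBS and E. coli libraries were thus the low pair and the untreated and LGG libraries the high pair. The log2 ratio was -0.34 (-0.35 to -0.33) in PBS against untreated, 0.23 (0.22 to 0.24) in LGG against PBS and 0.25 (0.24 to 0.26) for LGG over E. coli, while E. coli against PBS was at -0.02 (-0.03 to -0.0093). Of 4605 genes with a mean of at least 50 CPM, 8.77% were at least as far from 0 in PBS against untreated, 7.73% in LGG against PBS and 6.75% for LGG over E. coli. For E. coli against PBS the share was 81.5%.

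Fcgbp measured 5367 CPM without treatment, 6903 after PBS, 6725 after E. coli and 6341 after LGG. Its lowest library was the one in which Muc2 was highest. The log2 ratio of Fcgbp was 0.36 (0.35 to 0.37) in PBS against untreated and -0.12 (-0.13 to -0.11) in LGG against PBS, opposite in sign to Muc2 in both.

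Zg16 measured 2911 CPM without treatment, 3697 after PBS, 3753 after E. coli and 3864 after LGG. Tff3 was at 791, 1088, 1129 and 1151 CPM in the same order. Spink4 was at 194, 239, 241 and 251 CPM. These 3 genes of small secreted proteins shared the order of the libraries: untreated was lowest, and the gavaged libraries lay close together with LGG slightly highest. Scaled to epithelial genes in place of the whole library, LGG was instead below PBS and E. coli for all 3. In PBS against untreated the log2 ratios were 0.34 (0.33 to 0.36) for Zg16, 0.46 (0.43 to 0.49) for Tff3 and 0.30 (0.24 to 0.36) for Spink4. Among the gavaged libraries they were all between 0.02 and 0.08 in size, and for Spink4 in E. coli against PBS the interval of -0.04 to 0.07 included 0.

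Zg16 is also a gene of pancreatic acinar cells, whose markers moved between these libraries. Of the 18 measured genes of an acinar list, 17 were positive in PBS against untreated and 17 in E. coli against PBS, with a median of 1.71 in the latter. Over all genes 50.3% and 50.7% were positive. In LGG against PBS 14 of the 18 were positive (49.3% of all genes), with a median of 0.92. In LGG against E. coli 1 was positive (49.9% of all genes). Pnlip, the pancreatic lipase, measured 0.140 CPM without treatment, 2.87 after PBS, 12.7 after E. coli and 6.60 after LGG. In E. coli against PBS the log2 ratio was 2.14 for Pnlip and 0.02 (0.01 to 0.04) for Zg16. Zg16 was at 3697 CPM after PBS, far above Pnlip, and the part of acinar cells in the Zg16 level was not tested.

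Agr2 measured 754 CPM without treatment, 869.8 after PBS, 809 after E. coli and 967 after LGG. LGG was highest, with a log2 ratio against E. coli of 0.26 (0.23 to 0.28), whose interval overlapped that of Muc2. Agr2 also differed in LGG against PBS, at 0.15 (0.12 to 0.18).

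Spdef measured 103 CPM without treatment, 86.2 after PBS, 78.01 after E. coli and 110.1 after LGG. As for Muc2, the untreated and LGG libraries were the high pair. LGG against PBS gave a log2 ratio of 0.35 (0.26 to 0.45) and LGG against E. coli 0.50 (0.42 to 0.58), from 3222 and 2266 counts in the latter pair. Of the abundant genes, 1.78% were at least as far from 0 in the first comparison and 1.04% in the second. Against the untreated library, LGG was at 0.10 (0.03 to 0.17), so the LGG library was close to untreated and the difference from PBS was also a difference between the libraries without bacteria, at -0.25 (-0.34 to -0.16).

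**Figure D2:**
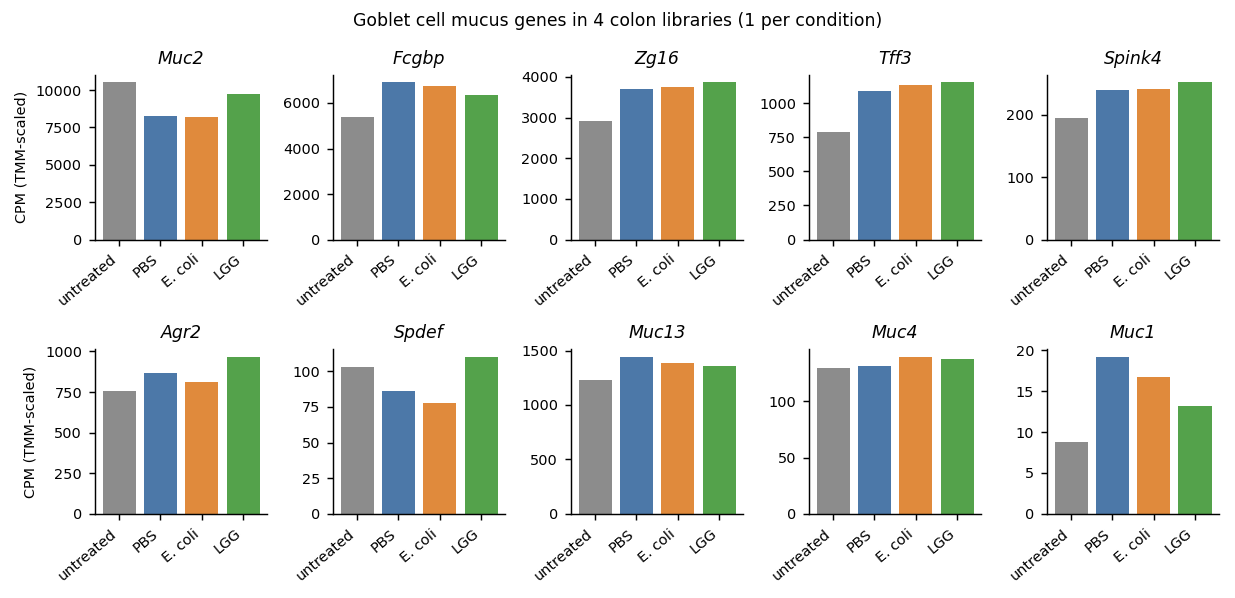
Level of each of the 10 genes (vertical axis, TMM-scaled CPM from 0) in the untreated, PBS, E. coli and LGG libraries, 1 bar per library with no replicates. Muc2 and Spdef are higher in the untreated and LGG libraries than in PBS and E. coli, whereas the other 8 genes are lowest in the untreated library.

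The membrane mucins differed from each other. Muc13, the highest of them per kb, measured 1226 CPM without treatment, 1443 after PBS, 1389 after E. coli and 1355 after LGG, with a log2 ratio of 0.24 (0.21 to 0.26) in PBS against untreated. Muc4 was the steadiest member, at 129.8, 131, 139 and 138 CPM, and its highest library was 1.07 times its lowest. In PBS against untreated its interval of -0.07 to 0.09 included 0. In the GENCODE M21 annotation, exons of Muc4 overlap Muc20 and exons of Muc13 overlap Gm15657 on the opposite strand, and since use of strand in counting is not given, reads of these pairs cannot be told apart.

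Muc1, a mucin with a signalling tail, measured 8.76 CPM without treatment, 19.2 after PBS, 16.7 after E. coli and 13.2 after LGG, from 250, 308, 484 and 386 counts. It had the widest range of the 10 genes, with the PBS library 2.19 times the untreated one. The log2 ratio was 1.13 (0.89 to 1.38) in PBS against untreated, 0.93 (0.70 to 1.15) in E. coli against untreated and -0.54 (-0.76 to -0.32) in LGG against PBS. Scaled to epithelial genes in place of the whole library, Muc1 was at 0.99 in PBS against untreated and under the 2-fold threshold. The 8 matched mesothelial genes summed to 50.3, 45.8, 21.0 and 28.1 CPM in the order above; Msln, which encodes mesothelin, was at 8.83, 10.3, 4.13 and 5.54 CPM, and the part of these cells in the Muc1 level was not tested.

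A gene was counted as past the 2-fold rule when its log2 ratio was 1 or more above or below 0, the counting interval did not hold 0 and the mean reached 1 CPM. By this rule 1 of the 10 members, Muc1, was past it in PBS against untreated, where 1.45% of all genes were. None of the 10 members was past it between LGG and PBS (0.277% of all genes), E. coli and PBS (0.415%), LGG and E. coli (0.36%), LGG and untreated (1.04%) or E. coli and untreated (2.35%). At 1.5-fold the count was 1 member, Muc1, in each comparison with the untreated library, against 5.92% of genes for PBS, 5.26% for LGG and 8.3% for E. coli, and 0 members between LGG and PBS (1.57%), E. coli and PBS (1.47%) or LGG and E. coli (2.19%).

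The depth of these genes made small differences visible to counting error. The counting interval excluded 0 on the higher side for 7 members and on the lower side for 2 in PBS against untreated, where 20.3% and 18.3% of all genes did so. In LGG against PBS it did so for 6 and 3 members (14.3% and 13.1% of all genes), and in E. coli against PBS for 3 and 5 (10% and 8.93%). In LGG against E. coli the counts were 6 and 3 members (16.4% and 16.2%). Against the untreated library they were 9 and 1 for LGG (24.7% and 23%) and 8 and 2 for E. coli (24.9% and 22.4%). LGG and E. coli lay on opposite sides of PBS, with both intervals excluding 0, for 3 members (Muc2, Agr2 and Spdef), against 2.53% of all genes and 6.38% of the 4605 genes with a mean of at least 50 CPM. Most members have far more counts than most genes, so these shares are not those of genes of like depth.

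The median log2 ratio of the 10 members was 0.27 between PBS and untreated, 0.07 between LGG and PBS, -0.03 between E. coli and PBS and 0.03 between LGG and E. coli. In LGG and E. coli against untreated it was 0.30 and 0.25, and these comparisons share the untreated library with the first. Over all 14450 genes each of these 6 medians was between -0.0026 and 0.0046. The summed level of the members was 21996 CPM without treatment, 22757 after PBS, 22456 after E. coli and 23910.0 after LGG, and Muc2 made up 47.8%, 36.4%, 36.4% and 40.7% of their counts. In PBS against untreated the ratio of the sum was 0.05, and without Muc2 it was 0.33. With library totals in place of TMM factors the ratio of the sum was -0.041 and the median 0.18.

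**Figure D3:**
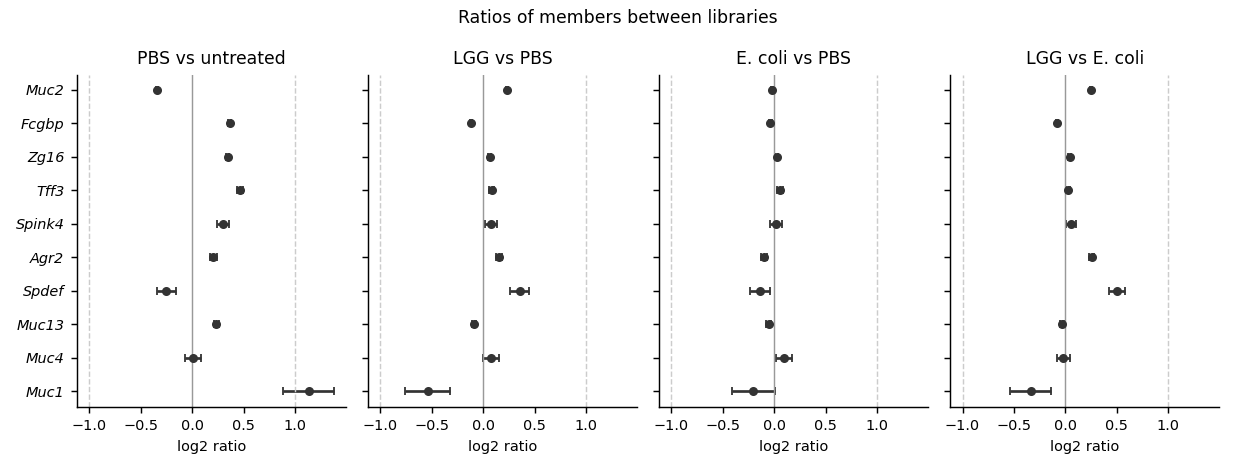
Log2 ratio (horizontal axis) of each gene in 4 comparisons, with 95% counting intervals as bars and dashed lines at 2-fold. Muc1 in PBS against untreated, at 1.13, is the one point beyond a dashed line, and the points of E. coli against PBS lie between -0.20 and 0.09.

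These 2 orders of the libraries, noticed in the data, were then counted. Untreated was the lowest library for 8 of the 10 members, against 34.2% of all genes. The same order held for 14 of 16 genes of the epithelium as a whole, whose median was 0.22 in PBS against untreated, beside 0.27 for the members. Scaled to those epithelial genes, untreated was lowest for 5 members (Fcgbp, Tff3, Zg16, Spink4 and Muc1) and 9.25% of all genes, and in PBS against untreated Tff3 was at 0.32, Fcgbp at 0.23 and Zg16 at 0.21. With library totals, untreated was lowest for 7 members, 18.1% of all genes and 10 of the 16 epithelial genes. The 14 genes of smooth muscle summed to 18041 CPM without treatment, 16529 after PBS, 14994 after E. coli and 16196 after LGG, and their part in the result was not tested.

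Muc2 and Spdef were the 2 of 10 members for which the untreated and LGG libraries were both above PBS and E. coli, under TMM and under each of the 5 other scalings. The share of all genes with this order was 17.8%, so 2 of 10 is near the background. Scaled to epithelial genes, PBS against untreated was at -0.48 for Muc2 and -0.39 for Spdef, and LGG against PBS at 0.13 and 0.26.

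Ratios between genes of the same library need no scaling. The count of Muc2 over that of Fcgbp was 1.96 (1.95 to 1.97) without treatment, 1.20 (1.19 to 1.21) after PBS, 1.22 (1.21 to 1.22) after E. coli and 1.53 (1.52 to 1.54) after LGG. The intervals of PBS and E. coli overlapped and the other libraries were higher, with untreated highest. Muc2 over Zg16 was 3.61, 2.24, 2.18 and 2.52 in the same order. Spdef over Muc2 varied less, at 0.00976, 0.0104, 0.00954 and 0.0113, and its highest value was 1.19 times its lowest. Zg16 over Fcgbp also varied little, at 0.542, 0.536, 0.558 and 0.609.

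**Figure D4:**
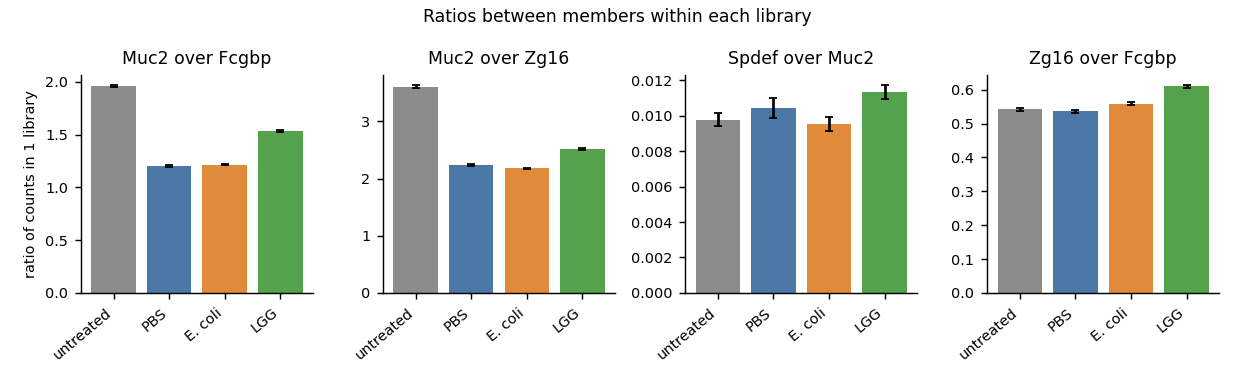
Ratio of the counts of 2 genes within each library (vertical axis from 0, no unit), 1 bar per library with 95% counting intervals. Muc2 over Fcgbp runs from 1.20 to 1.96 and Muc2 over Zg16 from 2.18 to 3.61, whereas Spdef over Muc2 and Zg16 over Fcgbp stay within 1.19-fold and 1.14-fold.

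Likeness to Muc2 was measured as the root mean square distance between log2 CPM profiles, each centred over the 4 libraries. The nearest abundant protein-coding genes outside the lists were Gm1123 (0.0088), the zinc transporter Slc30a4 (0.016), the mitochondrial thiolase Acaa2 (0.021), Pgrmc1 (0.021) and Abhd17b (0.024). Spdef was the nearest other member at 0.10, which ranked 981 among 14450 genes, and Muc4 was next at 0.18 and rank 6480. Fcgbp, at 0.29, ranked 12743. Over 4 libraries such distances describe the libraries alone.

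Goblet fate is set by Atoh1, the basic helix-loop-helix factor of all secretory cells, under Notch signals, and Spdef acts downstream of it. Of 18 genes of the goblet fate and secretory program, none was past the 2-fold rule in any comparison, and the list median was -0.09 in PBS against untreated, 0.06 in LGG against PBS with 15 of 18 positive, and 0.09 in E. coli against PBS with 14 of 18 positive. Over all genes, 49.3% and 50.7% were positive in LGG against PBS and E. coli against PBS, and of 16 epithelial genes 14 and 8 were. The order of Muc2 and Spdef held for 4 of the 18, beside 17.8% of all genes. The 4 were Atoh1, Gfi1, Stat6 and Il4ra, which were named after their values were seen. Atoh1 measured 88.1 CPM without treatment, 67.9 after PBS, 73.8 after E. coli and 84.8 after LGG. The genes of the list with the highest CPM, not divided by length, were Klf4, a factor of goblet differentiation, at 679 to 768 CPM, and Creb3l1, a factor of secretory capacity, at 230 to 285. Xbp1, the factor of the unfolded protein response, was at 164 CPM in the untreated and 195 in the LGG library.

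Of 27 measured genes that build the O-linked sugars of mucins, 1 was past the 2-fold rule in E. coli against untreated, beside 2.35% of all genes. This was Gcnt4, a core 2 enzyme, at -1.14 (-1.42 to -0.87), and none was past the rule in another comparison. The list medians were between -0.05 and 0.07 in the 6 comparisons. The order of Muc2 and Spdef held for 8 of the 27 genes, beside 17.8% of all genes. Among the 8 were Gcnt3 and B3gnt6, which were chosen after their values were seen. Gcnt3, the mucin-type core 2 and core 4 branching enzyme, measured 433 CPM without treatment, 331 after PBS, 303 after E. coli and 423 after LGG. B3gnt6, which makes the core 3 structure of mucin sugars, was at 37.6, 20.4, 22.5 and 35.4 CPM, with a log2 ratio of -0.88 (-1.06 to -0.70) in PBS against untreated and 0.79 (0.61 to 0.97) in LGG against PBS. The other genes of the list with high CPM did not share 1 order. The sialyltransferases St6galnac6, at 582, 766, 828 and 814 CPM, and St3gal4, at 390.1, 529, 580.3 and 586 CPM, were lowest in the untreated library. B4galnt2, which makes the Sda blood group sugar, was at 620.4, 482, 432 and 596 CPM, with untreated highest.

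Of 14 measured further goblet genes none was past the 2-fold rule, and 10 were positive in LGG against PBS (49.3% of all genes), with a median of 0.11. In the same comparison 14 of 16 genes of the epithelium as a whole were positive, with a median of 0.08. Klk1, a kallikrein, and Tspan8, a tetraspanin, had the highest CPM, at 845 to 958 and 599 to 700.3. Retnlb, the goblet cell protein RELM-beta, chosen after its values were seen, measured 55.9 CPM without treatment, 44.2 after PBS, 40.8 after E. coli and 69.6 after LGG. It had a log2 ratio of 0.65 (0.53 to 0.78) in LGG against PBS and 0.77 (0.67 to 0.87) for LGG over E. coli, larger than those of any of the 10 members. The order of Muc2 and Spdef held for 4 of the 14, Retnlb among them, beside 17.8% of all genes. Untreated was lowest for 8 of the 14, beside 34.2%. Ang4 was among the 8, with a log2 ratio of 0.93 (0.81 to 1.05) in PBS against untreated and -0.24 (-0.35 to -0.13) in LGG against PBS.

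Among 23 genes of mucus release, expansion and cross-linking, 18 were positive in PBS against untreated (50.3% of all genes), with a median of 0.14. Of 16 epithelial genes 14 were positive there, with a median of 0.22. In that comparison 1 of the 23 genes was past the 2-fold rule, beside 1.45% of all genes. This was Tgm3, a transglutaminase that cross-links Muc2, with 551 CPM without treatment, 1131 after PBS, 1412 after E. coli and 983 after LGG. Its log2 ratio was 1.04 (1.01 to 1.07) in PBS against untreated and 1.36 (1.33 to 1.38) in E. coli against untreated. Best2, a bicarbonate channel of goblet cells, was at 37.0, 66.4, 75.7 and 65.9 CPM and was past the rule in E. coli against untreated, at 1.03 (0.93 to 1.14). There 2 of the 23 genes, Tgm3 and Best2, were past the rule, beside 2.35% of all genes. Lypd8, a protein that keeps flagellated bacteria from the epithelium, had the highest CPM of the list at 4045 to 6201 CPM, and the anion exchanger Slc26a3 was second at 859 to 1673. Both were lowest in the untreated library.

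Other mucins had few counts. Of 13 further mucin genes, 7 were matched to a row, and 2 had a mean of at least 1 CPM: Muc20 at 17.3 to 21.4 and Muc6, a gastric gel mucin, at 1.05 to 1.81 CPM. The airway and stomach gel mucins Muc5ac and Muc5b had at most 2 counts in any library.

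Some markers of colon position had the order of Muc2 and Spdef. Hoxb6, Hoxb7, Hoxb8 and Osr2 of the proximal list were higher in the untreated and LGG libraries than in PBS and E. coli. That order held for 7 of the 11 genes of the proximal list in all and none of the 11 measured genes of the distal list, beside 17.8% of all genes. The same order held for 7 of 13 measured enteroendocrine genes, 8 of 18 genes of absorptive cells and 3 of 7 genes of tuft cells. Others of the proximal list, Car4, Ggh and Insl5, were instead lowest in the untreated library: Car4 was at 787, 1535, 1564 and 1400 CPM and Ggh at 193, 404, 402 and 338 CPM in the untreated, PBS, E. coli and LGG libraries. Hoxb7 was at 12.0, 4.99, 3.48 and 6.90 CPM and Hoxb8 at 22.0, 8.85, 6.95 and 11.9 CPM in the same order. Cdx2, an intestinal identity factor chosen after its values were seen, was at 236, 149, 148 and 225 CPM and was the 1 of 16 epithelial genes with that order. The part of position along the colon in the levels of Muc2, Spdef, Gcnt3 and B3gnt6 was not tested, and with 1 piece per condition position and treatment cannot be told apart.

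**Figure D5:**
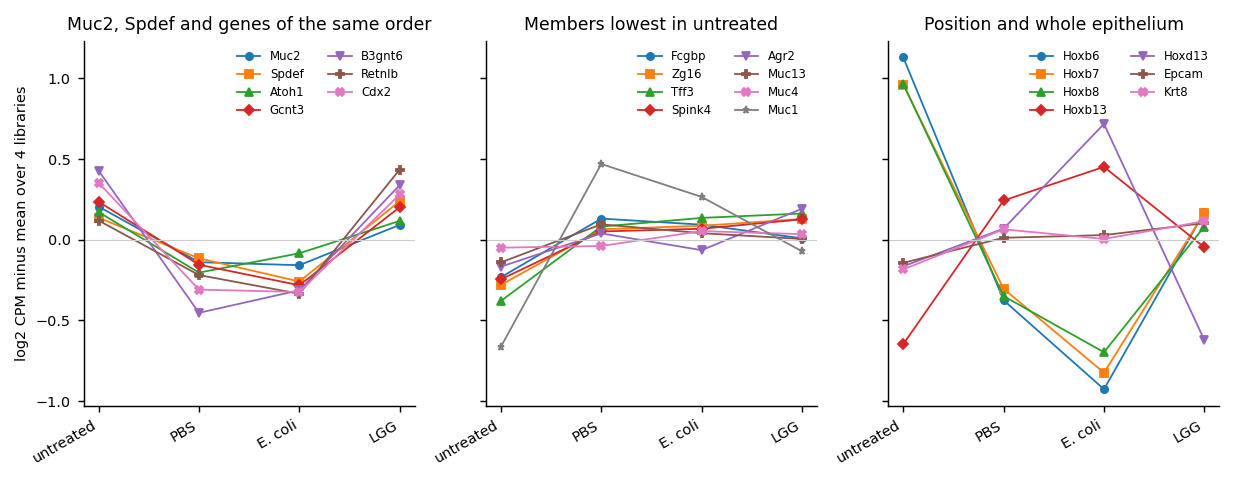
Log2 CPM minus the mean over the 4 libraries (vertical axis) for Muc2, Spdef and other genes of the same order (left), the other 8 mucus genes (middle) and genes of colon position and of the whole epithelium (right); lines join points of 1 gene and the conditions have no order. Muc2 and Spdef, like Hoxb6, Hoxb7 and Hoxb8, are higher in the untreated and LGG libraries than in PBS and E. coli, while the 8 other members are lowest in the untreated library, as are Epcam and Krt8.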

How the data were processed

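RNA from colon was sequenced in 4 libraries, 1 per condition. TopHat2, HOMER and the mouse build mm9 are named per the submitters' processing notes; their versions and roles, and whether counting used strand, were not found in the labels. The authors deposited expected counts for each RefSeq gene, in steps of 0.5 and not normalized, and these were rounded here to whole numbers (ties to the even neighbour). TMM scaling by edgeR 4.0.16 (R 4.3.3) gave CPM, counts per 1000000. Ratios used a prior of 0.5 counts and exact conditional binomial (Clopper-Pearson) 95% intervals, which cover counting error only. PCR copies are not separate molecules, so where counts include them the intervals are too narrow even for counting error. Python 3.11.15 was used (numpy 2.4.6; pandas 2.3.3; scipy 1.17.1; matplotlib 3.10.9). With 1 library per group there was no test and no p-value.

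The 10 members and 17 other gene lists were chosen with earlier results of these data known. Named genes were all members, list genes past the 2-fold rule or with the highest CPM of a list, and the 5 genes nearest Muc2 with a mean of at least 50 CPM; every other gene was named with its values known. Tried besides were DESeq2 1.42.0 size factors, upper-quartile factors, library totals, scaling to epithelial genes, non-coding rows left out, a prior of 5 counts, a 1.5-fold threshold, no filter on level or one of 5 CPM, sums without Muc2 or Zg16, and the untreated library as control. Scripts were tested on simulated data.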

Additional observations from a re-analysis of the deposited data

Results flagged for a closer look

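For 3 of the 10 genes, the LGG and E. coli libraries lay on opposite sides of the PBS library and both 95% counting intervals excluded 0, as they did for 2.53% of all genes and 6.38% of the 4605 genes with a mean of at least 50 CPM. Muc2 had log2 ratios against PBS of 0.23 after LGG and -0.02 after E. coli. Agr2 had 0.15 after LGG and -0.10 after E. coli, and Spdef had 0.35 after LGG and -0.14 after E. coli. Of the 4605 genes, at least as far from 0 in LGG against PBS were 7.73% for Muc2, 20.5% for Agr2 and 1.78% for Spdef. In E. coli against PBS the shares were 81.5%, 22.3% and 10.7%. Each condition is 1 library and both ratios of a gene share the PBS library, so the difference between the bacteria was not tested.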

How the results depend on the processing

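No paired analysis was possible because each condition has 1 library. Depth limits mainly Muc1, with 250 to 484 counts; for the other members the spread between libraries of 1 condition, which is not known here, is the limit. Among the log2 ratios of single members, all 60 kept their direction and stayed within their counting interval with DESeq2 size factors, with non-coding rows left out and with a prior of 5 counts.

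With library totals the median log2 ratio of the members was 0.18 in PBS against untreated, 0.20 in LGG against untreated and 0.16 in E. coli against untreated. The ratio of the sum was then -0.041, 0.021 and -0.054 in these comparisons, 0.062 for LGG over PBS and 0.075 for LGG over E. coli. With upper-quartile factors the ratio of the sum was 0.063 for LGG over PBS, 0.085 for LGG over E. coli, 0.11 for LGG over untreated and 0.021 for E. coli over untreated. With DESeq2 size factors it was 0.079 in LGG against PBS and 0.13 in LGG against untreated.

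Scaled to the epithelial genes, the median was 0.13 in PBS against untreated, -0.022 for LGG over PBS, -0.054 for LGG over E. coli, 0.067 for LGG over untreated and 0.10 in E. coli against untreated. The ratio of the sum was -0.088, -0.025, 0.0020, -0.11 and -0.12 in the same order, and -0.027 in E. coli against PBS. Of the 60 log2 ratios of single members, 13 changed sign on that scale. Among these were Zg16, Tff3 and Spink4, both for LGG over PBS and for LGG over E. coli. Zg16 was at -0.033 for LGG over PBS and -0.047 for LGG over E. coli, where Tff3 was at -0.061. In LGG against untreated, Spdef was at -0.13, Muc4 at -0.15 and Muc13 at -0.088, and Agr2 was at -0.043 in E. coli against untreated. Untreated was then lowest for 5 members in place of 8, and 0 members in place of 1 passed the 2-fold rule in PBS against untreated.

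Without Muc2 the ratio of the sum was 0.33 in PBS against untreated, -0.029 in LGG against PBS, -0.0093 in LGG against E. coli, 0.31 in LGG against untreated and 0.31 in E. coli against untreated. Without Zg16 it was -0.0018 in PBS against untreated, -0.027 in E. coli against PBS, 0.10 in LGG against E. coli, 0.071 in LGG against untreated and -0.029 in E. coli against untreated.

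With the untreated library in place of PBS, the median was 0.30 for LGG and 0.25 for E. coli, and the ratio of the sum 0.12 and 0.030. For LGG, the sign turned for Muc2 (-0.11), Fcgbp (0.24), Muc1 (0.59) and Muc13 (0.15). For E. coli it turned for Fcgbp (0.33), Agr2 (0.10), Muc13 (0.18) and Muc1 (0.93, from -0.20 with an interval that included 0). With a 1.5-fold threshold, 1 member passed in LGG against untreated and 1 in E. coli against untreated, where 0 passed at 2-fold. The causes of these changes were not tested beyond what the settings themselves alter.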
